A study of Homo sapiens with 6 samples.

Results

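RH30 cells are an established line from a human alveolar rhabdomyosarcoma, a childhood tumor with features of skeletal muscle. The expression of 10 genes around the transcriptional coactivator YAP was compared between RH30-IκBα SR cells (3 arrays), made with a retrovirus that carries the IκBα super repressor (SR), and RH30 vector cells (3 arrays), infected with the empty vector. The super repressor is an IκBα that cells cannot degrade in the usual way, so that classical NF-κB stays bound in the cytoplasm. Both lines were kept in DMEM with fetal bovine serum, and the labels do not say whether either is a clone or a pool. The genes were YAP1 and WWTR1 (coactivators), TEAD1 and TEAD4 (DNA-binding partners), the Hippo kinase gene LATS2, and ANKRD1, CYR61, CTGF, AMOTL2 and AXL (target genes), out of 22411 genes that could be named on the array. CYR61 and CTGF carry the current symbols CCN1 and CCN2, which are used from here on. The set was chosen partly from the difference between IκBα SR and vector arrays, in which ANKRD1 had stood among the largest increases, so the differences of the 10 genes are given as a description and without a test. Each of the 10 genes was represented by 1 feature of the array, a transcript cluster summarized from many short probes.

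YAP, encoded by YAP1, and its paralog TAZ, encoded by WWTR1, do not bind DNA themselves. They enter the nucleus and act through the TEAD transcription factors, while the Hippo kinases, of which LATS2 is a member, phosphorylate them and hold them in the cytoplasm. In myoblasts and muscle satellite cells YAP is known to favor proliferation over differentiation, and an active form of YAP in mouse satellite cells gives rise to rhabdomyosarcoma. Several of its target genes also answer to other pathways such as SRF with its MRTF coactivators.

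NFKBIA, which encodes IκBα and checks the transgene, was 13.55, 13.74 and 13.57 on the log2 scale in IκBα SR arrays, against 11.61, 11.66 and 11.58 in vector arrays. The medians of all features lay between 4.344 and 4.398 on the 6 arrays, and the median gene had a level of 5.129. Of 10 markers of rhabdomyosarcoma and the muscle lineage 9 lay at or above that level, whereas 0 of 4 endothelial and 0 of 4 leukocyte markers and 2 of 5 epithelial markers did. Of the muscle markers 5 were called higher by limma, among them MYOD1 (13.27 in IκBα SR cells and 12.65 in vector cells) and DES (15.71 in IκBα SR cells and 14.71 in vector cells). The lower ones were 2 in number, MYOG (11.09 in IκBα SR cells and 12.25 in vector cells) and MYF5 (9.71 in IκBα SR cells and 11.04 in vector cells). Of 5 fibroblast markers 2 lay at or above the level of the median gene, THY1 and LUM. LUM, the 1 fibroblast marker called higher, was 6.10 in IκBα SR cells and 4.55 in vector cells, and THY1, called lower, had a difference of -0.35. The other 3 were not called, and the mean over the fibroblast markers ranged from 5.15 to 5.44 over the IκBα SR arrays and from 5.01 to 5.12 over the vector arrays. The part of a change in cell composition in the results was not tested, and in RNA from a whole culture a change in the share of cells that express a gene cannot be told apart from a change of its RNA per cell.

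The promoter sequences of the genes with the TEAD recognition motif are shown first, since TEAD factors read this motif in the target genes. The letters searched were GGAATG on both strands in the 250 bases before the RefSeq start of transcription, and RefSeq promoter sequences of GRCh38.p14 were matched for 7 of the 10 genes. For CCN1, TEAD1 and TEAD4 no promoter sequence was at hand, and they were not searched for any motif. The motif was found for ANKRD1, CCN2 and YAP1, that is in 3 of the 7, and in 10.3% of 15374 promoters of measured genes. The sequences run 5′ to 3′ on the strand of the gene, with the motif in capitals. ANKRD1 lies at chr10:90921088-90921337 on the minus strand, CCN2 at chr6:131951373-131951622 on the minus strand and YAP1 at chr11:102110197-102110446 on the plus strand.
ANKRD1: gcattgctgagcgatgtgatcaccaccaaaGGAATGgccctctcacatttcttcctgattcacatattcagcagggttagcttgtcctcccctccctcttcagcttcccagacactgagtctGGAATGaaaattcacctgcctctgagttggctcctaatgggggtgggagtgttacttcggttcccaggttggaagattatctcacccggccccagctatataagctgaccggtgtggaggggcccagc
CCN2: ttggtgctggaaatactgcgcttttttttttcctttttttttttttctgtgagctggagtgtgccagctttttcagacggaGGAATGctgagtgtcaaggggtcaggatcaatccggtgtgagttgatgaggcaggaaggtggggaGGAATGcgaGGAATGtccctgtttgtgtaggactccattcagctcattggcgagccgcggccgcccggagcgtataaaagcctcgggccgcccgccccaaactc
YAP1: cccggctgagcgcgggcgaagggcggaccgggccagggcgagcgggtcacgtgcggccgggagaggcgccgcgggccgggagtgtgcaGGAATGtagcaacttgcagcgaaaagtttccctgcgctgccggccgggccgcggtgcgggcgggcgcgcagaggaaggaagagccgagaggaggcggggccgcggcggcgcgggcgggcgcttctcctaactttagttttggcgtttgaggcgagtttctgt

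Counted back from the start, the motifs began at positions -220 and -128 of ANKRD1, at -169, -104 and -95 of CCN2, and at -162 of YAP1, all on the strand of the gene. In the CCN2 promoter the motif that begins at -95 overlaps a match to the NF-κB consensus on the opposite strand, from -95 to -86. Matches to the NF-κB consensus were found for CCN2 and AMOTL2, 2 of the 7 genes, and in 5.67% of all promoters. The AP-1 motif TGANTCA occurred in the ANKRD1 promoter, beginning at -195, and in 5.39% of all promoters. The CArG box read by SRF was found in 0 of the 7, which do not include CCN1, and in 1.14% of all promoters. These are matches of letters and were not tested for binding.

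ANKRD1 had the largest difference of the 10 genes. It encodes a cardiac and muscle ankyrin repeat protein that binds titin in the sarcomere and is also found in the nucleus, and its promoter holds the motifs printed above. Its level was 13.59, 13.57 and 13.64 in the IκBα SR arrays, against 10.49, 10.41 and 10.29 in the vector arrays. All 3 IκBα SR arrays lay above all vector arrays, with a gap of 3.08 log2 units between the nearest values. The means were 13.60 ± 0.04 in IκBα SR cells and 10.40 ± 0.10 in vector cells (SD, n = 3 each), a level 9.21 times as high in IκBα SR cells. Ordered from the largest increase down, ANKRD1 stood at place 8 of 22411 genes.

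The CCN genes encode secreted matrix proteins that bind integrins, and both are classical target genes of YAP with TEAD. CCN1 was 13.14, 13.03 and 13.14 in IκBα SR arrays, against 12.60, 12.69 and 12.48 in vector arrays. CCN2 was 8.90, 9.10 and 9.04 in IκBα SR arrays, against 8.18, 8.41 and 8.22 in vector arrays. For both genes each IκBα SR array lay above each vector array. The differences were 0.51 for CCN1 and 0.74 for CCN2 on the log2 scale, or levels 1.42 and 1.67 times as high in IκBα SR cells, far short of the difference of ANKRD1.

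AMOTL2, LATS2 and AXL complete the target genes, and they differed by much less. AMOTL2 encodes an angiomotin family protein that holds YAP at cell junctions and in the cytoplasm, and like LATS2 it is a target gene that acts back on YAP. AMOTL2 had the value 7.29 on all 3 IκBα SR arrays, against 6.96, 7.13 and 7.04 in vector arrays, a difference of 0.24. LATS2 was 9.01, 8.91 and 9.01 in IκBα SR arrays, against 8.95, 8.88 and 8.78 in vector arrays. LATS2 was the only one of the 10 genes in which the groups overlapped, and its difference of 0.11 compares with SDs of 0.059 in IκBα SR cells and 0.085 in vector cells. AXL, a receptor tyrosine kinase, had the value 14.82 on all 3 IκBα SR arrays, against 14.88, 14.94 and 14.87 in vector arrays. The arrays of AXL did not overlap, but the difference was -0.08.

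**Figure D1:**
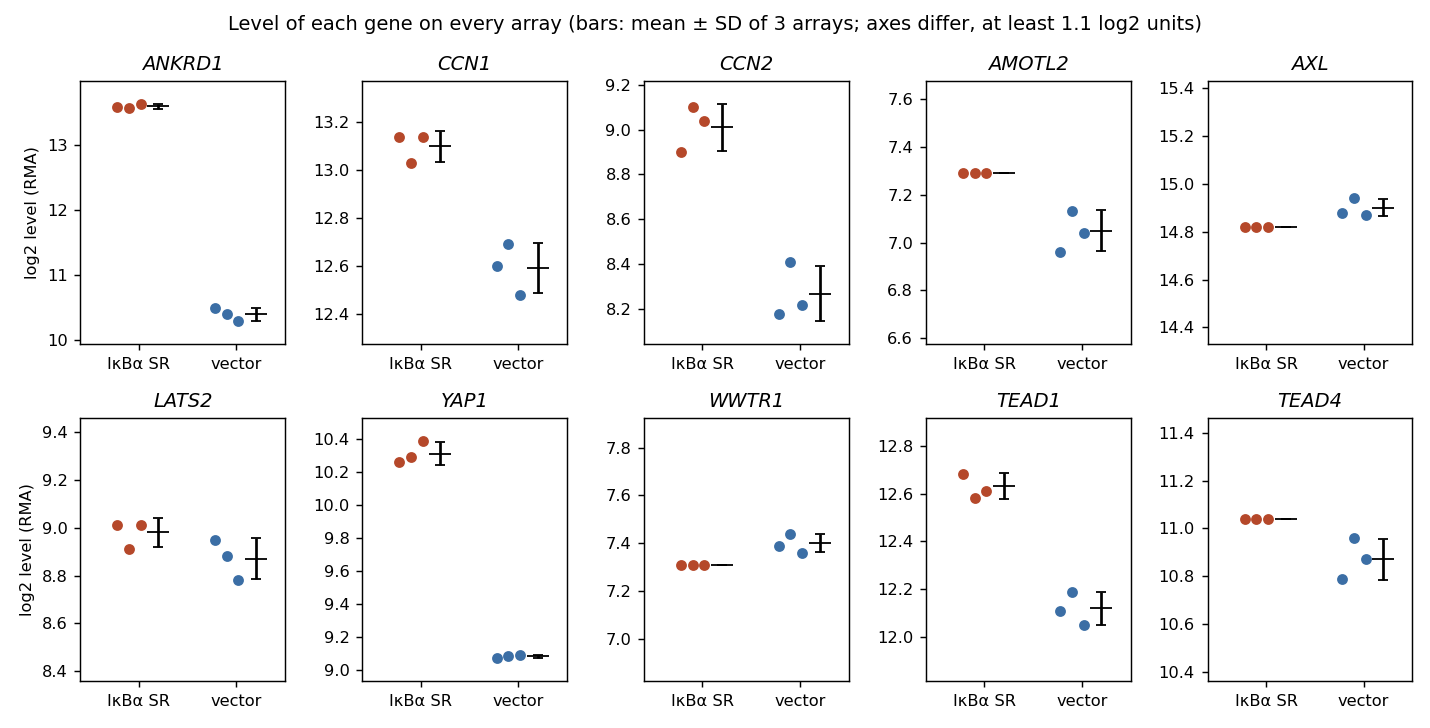
Level of each of the 10 genes on the log2 scale (RMA) on every array, with IκBα SR arrays on the left and vector arrays on the right of each panel; points are arrays, and the black marks show the mean ± SD of 3 arrays. The groups lie apart by 3.08 for ANKRD1 and by 1.17 for YAP1, overlap for LATS2, and differ by less than 0.3 for AMOTL2, AXL, WWTR1 and TEAD4.

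The genes of the factors themselves differed in direction and size. YAP1 was 10.26, 10.29 and 10.39 in IκBα SR arrays, against 9.07, 9.08 and 9.09 in vector arrays. The lowest IκBα SR array was 1.17 above the highest vector array. The means were 10.31 ± 0.07 in IκBα SR cells and 9.08 ± 0.01 in vector cells (SD, n = 3 each), a level 2.35 times as high in IκBα SR cells. WWTR1, the gene for TAZ, had the value 7.31 on all 3 IκBα SR arrays, against 7.39, 7.44 and 7.36 in vector arrays, a difference of -0.09 in the other direction.

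TEAD1 was 12.68, 12.58 and 12.61 in IκBα SR arrays, against 12.11, 12.19 and 12.05 in vector arrays. The groups did not overlap and the difference was 0.51, a level 1.42 times as high in IκBα SR cells. TEAD4, which is expressed in muscle precursors, had the value 11.04 on all 3 IκBα SR arrays, against 10.79, 10.96 and 10.87 in vector arrays, a difference of 0.17. The arrays of TEAD4 did not overlap, with a gap of 0.081. In 4 of the 10 genes, AMOTL2, AXL, WWTR1 and TEAD4, the values of the 3 IκBα SR arrays were identical, so that their spread cannot be judged from the IκBα SR arrays, and 6147 of all genes had identical values within at least 1 group.

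Over the 10 genes, the IκBα SR arrays lay above all vector arrays in 7 and below them in 2, and the groups overlapped in 1. Over all genes, IκBα SR arrays lay above all vector arrays in 15.2% and below them in 14.4%. Since the genes were chosen with this contrast known, nothing is read from the 2 shares. The median difference was 0.376 over the 10 genes and 0.00 over all genes. The 10 genes all had a mean level above that of the median gene. Levels are not compared between genes, as each feature has probes of its own.

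YAP1 is on chromosome 11, where most of its expressed neighbors were also higher. Of the 20 nearest protein-coding genes at or above the median gene in level (10 on each side, by RefSeq gene order), 12 passed the test as higher in IκBα SR cells and 2 as lower (limma, adjusted p under 0.05), and their median difference was 0.40. The median was 0.67 with 5 genes on each side and 0.00 without a filter on level. Of all 22411 genes, 9.76% were called higher and 8.58% lower. Of these genes 11205 lay below the median gene, and a separate fit without them, with an adjustment of its own, called 2455 higher and 2066 lower. The counts among neighbors, here and below, are to be read beside these larger shares, as the neighbors were filtered on level. The nearest neighbor before YAP1 in this filtered order was ARHGAP42. As dimmer genes were left out, it need not be adjacent to YAP1 on the chromosome. ARHGAP42 was 10.12, 10.15 and 10.13 in IκBα SR arrays, against 8.16, 8.13 and 8.24 in vector arrays. Its difference of 1.95 was larger than that of YAP1 (adjusted p = 3.7e-05 from limma). The higher neighbors with the smallest p after it were ELMOD1 (difference 0.98), DCUN1D5 (1.32) and MTMR2 (1.02), with adjusted p from 0.00026 to 0.00035 from limma. ELMOD1 had the value 8.62 on all 3 vector arrays. On the other side of YAP1, BIRC2, an inhibitor of apoptosis and itself an NF-κB target gene, was lower, at 9.94 ± 0.06 in IκBα SR cells and 10.39 ± 0.04 in vector cells (SD, n = 3 each; adjusted p = 0.0025 from limma). SRSF8, a splicing factor gene, was lower by 0.48 (adjusted p = 0.029 from limma). Of the 20 neighbors, 3 had a larger increase than YAP1, namely ARHGAP42, MSANTD4 and DCUN1D5. Whether YAP1 moved with its neighborhood was not tested.

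The neighbors of the other genes had medians nearer to 0. The 20 neighbors of ANKRD1 on chromosome 10 had a median difference of 0.081 and a highest difference of 0.707, with 7 higher and 3 lower, the lower ones being the interferon-induced genes IFIT2 and IFIT3 and the target gene MYOF. Those of TEAD1 had a median of 0.047, with 5 higher and 1 lower. CCN2 had neighbors with a median of 0.203, of which 10 were higher and 1 was lower, and 3 of them had a larger increase than CCN2. Without the filter on level this median was 0.047. The neighbors of the remaining 6 genes had medians between -0.201 (AXL) and 0.032 (TEAD4), and without the filter on level those of AXL and CCN1 were -0.081 and -0.023, against -0.201 and -0.164 with it.

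**Figure D2:**
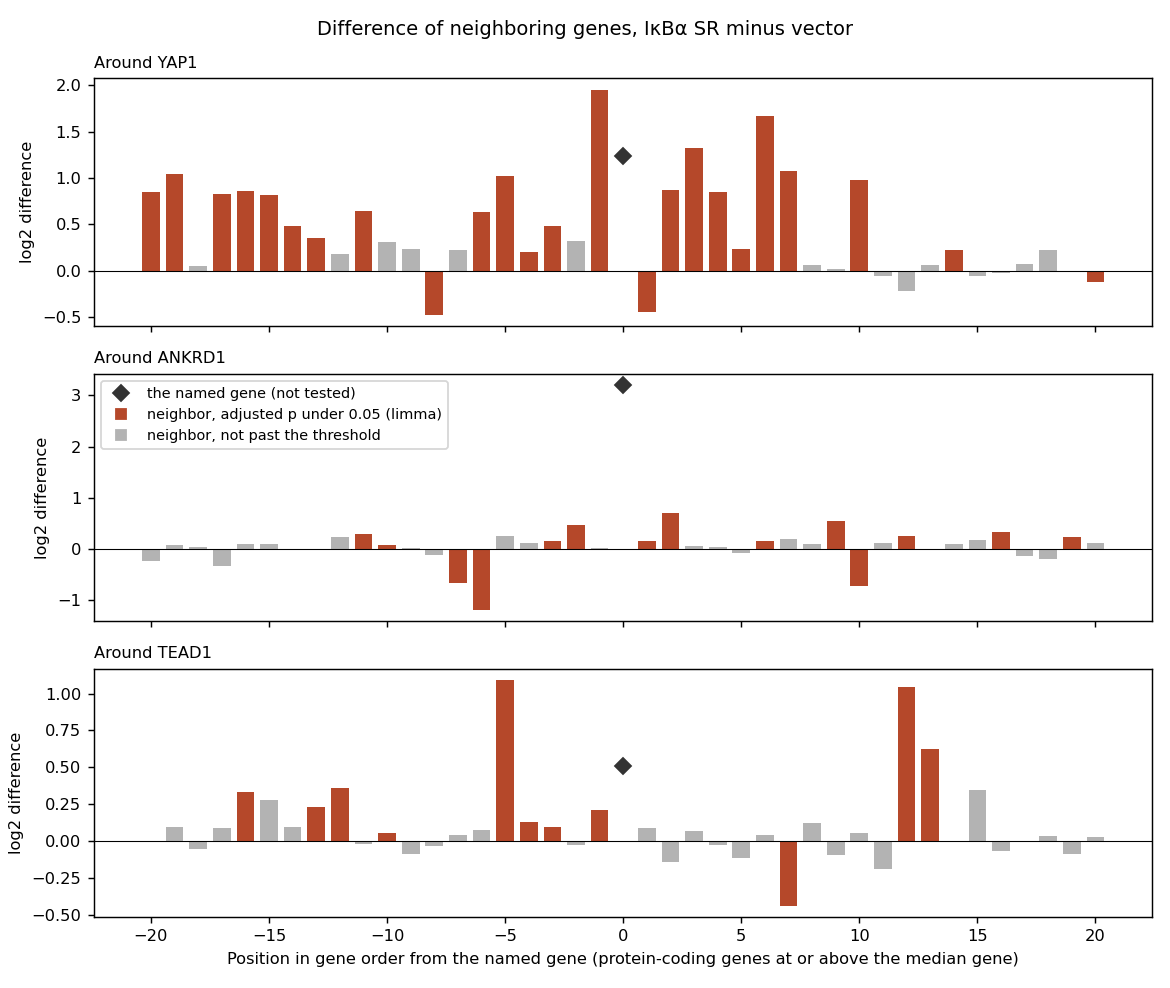
Difference in log2 level, IκBα SR minus vector, of protein-coding genes by their place in gene order around YAP1, ANKRD1 and TEAD1, with 20 genes on each side. Only genes at or above the median gene in level are shown. Red bars passed an adjusted p under 0.05 from limma, gray bars did not, and the diamond is the named gene, which was not tested. The bars around YAP1 stand mostly above 0, with a median of 0.40 over the 10 nearest on each side, against 0.081 around ANKRD1 and 0.047 around TEAD1. Without the filter on level these medians were 0.00, 0.093 and 0.019.

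Next, genes that are not members were examined with limma, fitted over all 22411 genes with Benjamini-Hochberg adjustment. At an adjusted p under 0.05, 18.3% of all genes were called, 9.76% as higher and 8.58% as lower in IκBα SR cells. A separate fit without the 11205 genes below the median gene, with an adjustment of its own, called 2455 higher and 2066 lower. It held only brighter genes and called a larger share of them than the main fit called of all genes. Most genes of each list below, apart from the paralogs and partners, are such brighter genes. A count in these lists above 18.3% is therefore not read as a result about the list. The p-values measure the spread between 3 arrays of each line, which were grown in triplicate from what may be a single infection, and the number of arrays limits the precision. As with the members, the spread of a group with identical values cannot be judged, and the p-values of such genes share this limit.

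A published signature of 22 YAP and TAZ target genes contains 6 of the 10 members, and the other 16 genes were all measured. Of these, 9 were called higher and 3 were called lower in IκBα SR cells, while 4 were not called. The median difference of the 16 genes was 0.337 against 0.00 over all genes. Only 2 of the 16 lay below the median gene, and the list was chosen with earlier results of these data known. Nothing is therefore read from the 2 medians. TGFB2, which encodes a transforming growth factor β ligand, was 12.46, 12.37 and 12.41 in IκBα SR arrays, against 10.58, 10.60 and 10.43 in vector arrays. The groups of TGFB2 lay far apart, with a level 3.67 times as high in IκBα SR cells (adjusted p = 0.00013 from limma). ARHGEF17 was 7.16 ± 0.09 in IκBα SR cells and 5.71 ± 0.10 in vector cells (SD, n = 3 each; adjusted p = 0.00047 from limma). DOCK5, which encodes an activator of Rac, was higher by 0.57, and PTPN14, which encodes a phosphatase that binds YAP, by 0.41 (adjusted p = 0.00069 and 0.0010 from limma). Of the remaining higher genes, CCDC80 was called in 16 of 16 alternatives, FJX1 and RBMS3 in 15, F3 in 9 and ASAP1 in 8. Of the 4 genes not called, NUAK2 was lower by 0.35 and CRIM1 higher by 0.22, both without overlap of the groups (adjusted p = 0.051 and 0.15 from limma). NUAK2 was called in 7 of 16 alternatives and CRIM1 in 0.

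The lower target genes went against the direction of most of the signature. MYOF, which encodes the membrane repair protein myoferlin, was 11.69, 11.56 and 11.64 in IκBα SR arrays and listed at 12.35 in every vector array (adjusted p = 0.00044 from limma). NT5E, the gene for the ectonucleotidase CD73, was 9.64, 9.72 and 9.90 in IκBα SR arrays, against 10.43, 10.45 and 10.38 in vector arrays (adjusted p = 0.0053 from limma). GADD45A, a growth arrest and DNA damage gene, was lower by 0.25 (adjusted p = 0.0020 from limma). In these 3 genes every IκBα SR array lay below every vector array.

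Some of the higher target genes lay among neighbors that were mostly higher too, and others did not. The 20 neighbors of ARHGEF17 on chromosome 11 had a median difference of 1.712, with 18 higher, and 13 of them had a larger increase than ARHGEF17. For PTPN14 on chromosome 1 the median was 0.424, with 14 of 20 higher, and for TGFB2 on the same chromosome 0.223, with 12 higher, 1 lower and 0 above TGFB2 itself, and TGFB2 is itself a neighbor of PTPN14. The neighbors of DOCK5 had a median of 0.285, with 9 higher and 1 lower, and 4 had a larger increase than DOCK5. Those of RBMS3 had a median of 0.208. For the other higher target genes the medians were 0.064 (FJX1), 0.060 (CCDC80), 0.014 (ASAP1) and -0.010 (F3). FJX1, CCDC80 and F3 themselves were higher by 0.82, 0.61 and 0.71. Whether these genes moved with their neighbors was not tested. IGFBP3, which encodes an IGF-binding protein, lies among neighbors with a median of 0.625, yet it was 4.09 in IκBα SR cells and 4.10 in vector cells, below the median gene. Without the genes whose neighbors had a median of at least 0.3 in size, a choice made after the data were seen, 7 of the target genes were higher and 3 lower.

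**Figure D3:**
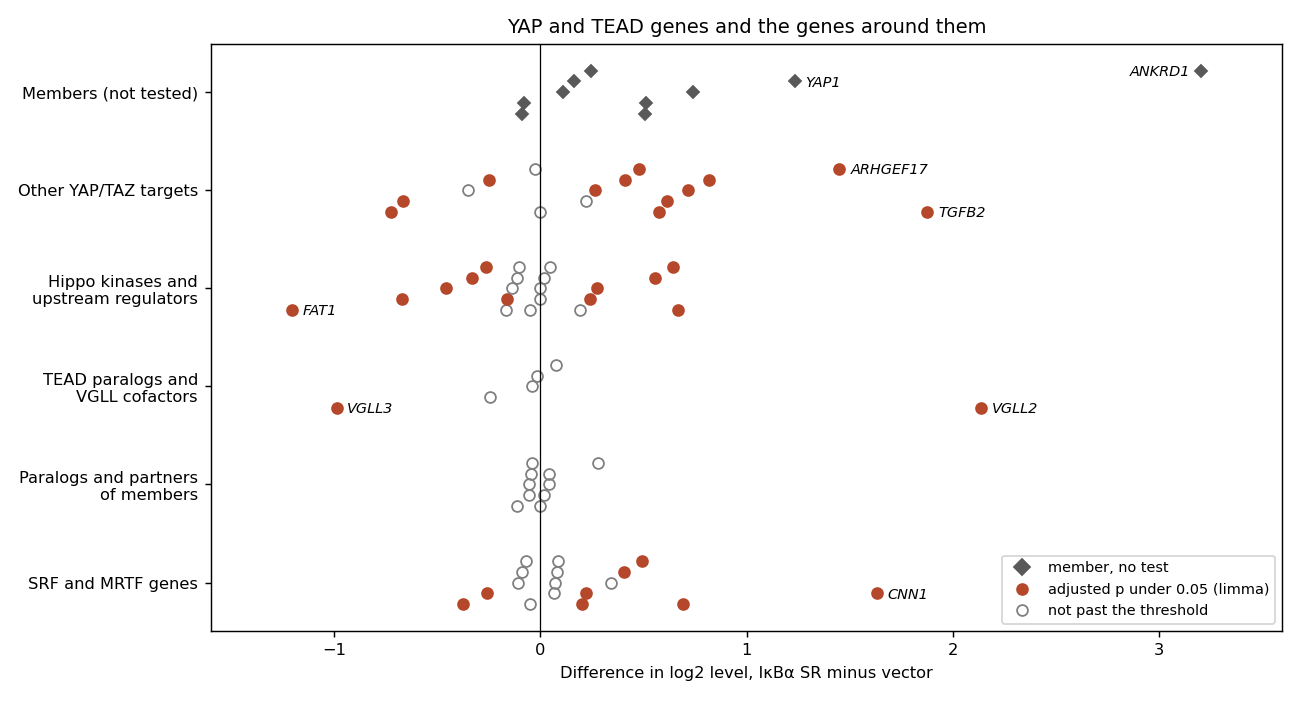
Difference in log2 level, IκBα SR minus vector, for the 10 members (gray diamonds, not tested) and for the measured genes of 5 lists; filled points passed an adjusted p under 0.05 from limma and open points did not. ANKRD1 stands at 3.20, VGLL2 at 2.14 and TGFB2 at 1.88 on the higher side, while FAT1 stands at -1.20 and VGLL3 at -0.99, and no filled point occurs among the paralogs and partners.

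The genes that act upstream of YAP were divided. Of 24 listed kinases, scaffolds and junction proteins 21 were measured under a single symbol, of which 5 were higher, 6 were lower and 10 did not pass the test, with a median difference of -0.051. FAT1, a giant cadherin upstream of the Hippo kinases, had the largest difference of the list, with 8.46, 8.61 and 8.53 in IκBα SR arrays, against 9.64, 9.71 and 9.86 in vector arrays. The level of FAT1 was 0.434 times that of vector cells (adjusted p = 0.00087 from limma). STK4, the gene for a Hippo kinase that activates the LATS kinases, was 9.04 ± 0.06 in IκBα SR cells and 9.37 ± 0.03 in vector cells (SD, n = 3 each, adjusted p = 0.0045 from limma). STK3, also a Hippo kinase gene of the list, had a difference of -0.14 and was not called (adjusted p = 0.12 from limma). MAP4K4, another kinase that acts on LATS, was lower by 0.26 (adjusted p = 0.00091 from limma). WWC1, the gene for the scaffold KIBRA, was lower by 0.16 at a level below that of the median gene (adjusted p = 0.00057 from limma). WWC1 had the value 5.09 on all 3 vector arrays, so its spread cannot be judged from them. The neighbors of STK4 and WWC1 had median differences of -0.291 and -0.185, and those of FAT1 and MAP4K4 had -0.192 and 0.037. Whether these genes moved with their neighbors was not tested.

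Among the higher upstream genes, SAV1, whose product is the scaffold of the Hippo kinases, was 10.90, 10.96 and 10.92 in IκBα SR arrays, against 10.30, 10.33 and 10.15 in vector arrays (adjusted p = 0.0020 from limma). AMOTL1, a paralog of AMOTL2, was 11.12 ± 0.04 in IκBα SR cells and 10.48 ± 0.04 in vector cells (SD, n = 3 each; adjusted p = 0.00048 from limma), and its 20 neighbors on chromosome 11 had a median difference of 0.418. These neighbors reach as far as ARHGAP42, the nearest neighbor before YAP1 in the filtered order, and so overlap the neighbors of YAP1. AJUBA, which encodes an inhibitor of the LATS kinases, was higher by 0.24, and TAOK3, a kinase gene, by 0.27 (adjusted p = 0.0051 and 0.013 from limma). The neighbors of TAOK3 had a median difference of 0.241, those of SAV1 0.226 and those of AJUBA -0.094. The call of TAOK3 did not hold without any 1 of the 3 IκBα SR arrays, nor without vector replicate 3. The count of higher genes was 3 without any 1 of the IκBα SR arrays. LATS1, the paralog of LATS2, was 9.62, 9.61 and 9.62 in IκBα SR arrays, against 9.62, 9.54 and 9.54 in vector arrays, and was not called (adjusted p = 0.35 from limma).

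The cofactors of the TEAD proteins held one increase and one decrease of some size. VGLL2, a vestigial-like cofactor of TEAD known from skeletal muscle, was 9.34, 9.33 and 9.45 in IκBα SR arrays and listed at 7.24 in every vector array. The difference of VGLL2 was 2.14 (adjusted p = 3.7e-05 from limma), while its 20 neighbors had a median of 0.312 and none of them had a larger increase. VGLL3, a paralog that also binds TEAD, was 11.41, 11.45 and 11.59 in IκBα SR arrays, against 12.63, 12.45 and 12.34 in vector arrays, or 0.504 times the level in vector cells (adjusted p = 0.0030 from limma). The other 4 genes of the list did not pass the test. TEAD2 had the value 8.62 on all 3 IκBα SR arrays, against 8.81, 9.02 and 8.75 in vector arrays (adjusted p = 0.12 from limma), and TEAD3 had a difference of 0.08 (adjusted p = 0.087 from limma). VGLL1 and VGLL4 had differences of -0.02 and -0.04, and VGLL1 lay below the median gene.

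Of 10 measured paralogs and partners of the members, 0 were called by limma and 0 by the methods' t-test after adjustment, and their median difference was -0.022. At an unadjusted p under 0.05, 1 gene, PROS1, differed by either test. ANKRD2 and ANKRD23, the other muscle ankyrin repeat genes, were 4.75 and 4.45 in IκBα SR cells and 4.70 and 4.46 in vector cells, below the median gene. CCN3, CCN4, CCN5 and CCN6 had means between 3.44 and 4.16 in IκBα SR cells and between 3.42 and 4.21 in vector cells, also below it. The other receptors of the AXL family, TYRO3 and MERTK, had differences of 0.04 and -0.05. Their ligand genes GAS6 and PROS1 had differences of -0.04 and 0.28, and GAS6 lay below the median gene. MERTK and GAS6 each had identical values on all IκBα SR arrays. PROS1 was 6.51, 6.49 and 6.73 in IκBα SR arrays, against 6.21, 6.36 and 6.32 in vector arrays, and the arrays did not overlap (adjusted p = 0.098 from limma).

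SRF is a transcription factor that turns on cytoskeletal genes together with the MRTF coactivators, and it shares target genes with YAP. Of 18 listed genes 17 were measured (all but FLNA), with 6 higher, 2 lower and 9 that did not pass the test, and a median difference of 0.081. CNN1, the gene for smooth muscle calponin, was 7.13, 7.13 and 7.29 in IκBα SR arrays, against 5.81, 5.51 and 5.34 in vector arrays, a difference of 1.63 (adjusted p = 0.0022 from limma). FHL2, a LIM domain cofactor gene, had the value 8.47 on all 3 IκBα SR arrays, against 7.78, 7.85 and 7.68 in vector arrays (adjusted p = 0.0011 from limma). TAGLN, which encodes an actin-binding protein, was higher by 0.49 and SRF itself by 0.41 (adjusted p = 0.0036 and 0.0064 from limma). VCL, the gene for vinculin, was lower by 0.26, and the coactivator gene MRTFB by 0.38 (adjusted p = 0.00058 and 0.0021 from limma). MRTFB had the value 9.82 on all 3 IκBα SR arrays. Its paralog MRTFA went the other way, higher by 0.20 (adjusted p = 0.032 from limma), and was called in 8 of 16 alternatives. ACTA2, smooth muscle actin, was 4.57 in every IκBα SR array, against 4.71, 4.76 and 4.57 in vector arrays, below the median gene.

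The genes most like ANKRD1 over the 6 arrays were found by the Euclidean distance between profiles, after the mean of each gene was subtracted, among 11205 other genes at or above the median gene in level. They were SNORD113-4 and SNORD114-20, small nucleolar RNAs of the imprinted cluster on chromosome 14, DPY19L2, FLG and DMBT1. The distances were between 0.277 and 0.511, against a median of 3.93 over all genes compared. With 3 arrays of each group, a small distance says mainly that a gene had a difference of like size, and these genes had differences between 2.81 and 3.56. DMBT1, a scavenger receptor gene, was 9.40, 9.53 and 9.44 in IκBα SR arrays, against 6.65, 6.65 and 6.63 in vector arrays. FLG, the gene for filaggrin, was 9.62, 9.53 and 9.62 in IκBα SR arrays, against 6.05, 6.09 and 5.95 in vector arrays. None of the 5 is among the YAP and TAZ target genes listed here.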

How the data were processed

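RNA of RH30-IκBα SR cells (3 arrays) and RH30 vector cells (3 arrays) was measured on the Affymetrix Human Transcriptome Array. The authors deposited log2 values, made by RMA (background correction, scaling across arrays, 1 value per feature) with the Affymetrix Expression Console, as the submitters' processing notes have it. The version of this program and the annotation build were not given in the sources used here. Features with 1 symbol (23781 of 70523) were named through the platform annotation, updated with RefSeq (GRCh38.p14). Each of 22411 genes was read from its brightest feature over all 6 arrays. IκBα SR was compared with vector cells in limma (lmFit, eBayes; 3.58.1, under R 4.3.3), calling genes at a Benjamini-Hochberg adjusted p under 0.05, after the procedure was tested on simulated data. The members and the gene lists were chosen with earlier results of these data known. Named in the text are the 10 members, up to 4 called genes per list and direction by smallest p (neighbors of YAP1 likewise), every TEAD, VGLL and paralog gene, the 5 profiles nearest to ANKRD1, and NFKBIA; other genes named, such as IGFBP3, LATS1, ACTA2, ASAP1, F3 and IFIT3, were chosen after their values were seen. Alternatives were other scaling, filters, features, variance models, the methods' t-test, the replicate number as a block, each array left out, and a minimum fold.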

Additional observations from a re-analysis of the deposited data

How the results depend on the processing

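The differences of the 10 member genes were recomputed under 11 settings, of which only the further quantile normalization, the centering of arrays and the array weights bear on their size apart from arrays left out. The mean of all features equals the value given, as each of these genes has 1 feature, the replicate block leaves a balanced difference as it is, and leaving out an array cannot turn a gene whose groups do not overlap. The difference of AXL was -0.05 after quantile normalization. Over all settings ANKRD1 ranged from 3.15 to 3.25, YAP1 from 1.19 to 1.27 and LATS2 from 0.06 to 0.15 on the log2 scale. The median of the neighbors of YAP1 ranged from 0.00 to 0.67. The cause was not tested for the changes below, apart from the minimum fold, which asks for more than the test above.

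The replicate numbers were not taken to pair the arrays, since the deviations from the group means correlated at 0.118, -0.217 and -0.195 between arrays of the same number, and the highest correlation, 0.306, joined arrays of different numbers. With the replicate block, 1327 genes were higher and 1123 lower, 6 of the other target genes were higher and 2 lower, 3 upstream genes and 3 SRF and MRTF genes were higher, and 0 of the TEAD and VGLL genes were lower. A minimum change of 1.2-fold gave 924 genes higher and 665 lower, 6 of the other target genes higher and 2 lower, 2 upstream genes higher and 1 lower, and 3 SRF and MRTF genes higher and 0 lower. Of the TEAD and VGLL genes, 2 were higher with array weights, 2 were lower after quantile normalization, 0 were higher without genes with identical values, which leaves out VGLL2, and 0 were higher without genes among neighbors that moved, chosen after the data were seen. Without dim genes 1 paralog or partner was higher, and without genes with identical values 1 SRF or MRTF gene was lower.

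Without each array in turn, higher and lower genes numbered 1629 to 2010 and 1360 to 1781 over all genes, 7 to 8 and 3 to 4 among the other target genes, 3 to 5 and 5 to 7 among the upstream genes, 1 to 2 and 1 to 2 among the TEAD and VGLL genes, 0 to 1 and 0 to 0 among the paralogs and partners, and 4 to 6 and 2 to 4 among the SRF and MRTF genes. Among the SRF and MRTF genes 4 were lower without vector replicate 3, and without the same array 1 paralog or partner was higher. Of the TEAD and VGLL genes, 2 were higher without vector replicate 1 and 2 were lower without vector replicate 2. The count of members with the TEAD motif was 4 in the 300-base window, LATS2 being added.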
